A study of Mus musculus with 16 samples.

Results

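Conventional dendritic cells (cDCs) of the spleen take up antigen from the blood and prime naive T cells. Their 2 lineages are built by different regulators. cDC1s depend on the transcription factors IRF8 and BATF3, carry the chemokine receptor XCR1 and cross-present captured antigen on MHC class I to CD8+ T cells. cDC2s depend on IRF4 and, in the spleen, on NOTCH2 and lymphotoxin signalling, carry SIRPα (CD172a) and mainly present antigen on MHC class II to CD4+ T cells.

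Control cDC1s were compared with control cDC2s, to see which genes separate the subsets in the steady state. The comparison rests on 4 of the 16 RNA sequencing (RNA-seq) libraries of the series, 2 of control cDC1s and 2 of control cDC2s, chosen by their labels. All mice were C57BL/6 at 12 weeks of age, and the 2 libraries of a population are described as coming from different mice. Splenocytes of the CD11c-high MHC II+ DC gate were sorted as XCR1+33D1- cells (cDC1s) or XCR1-33D1+ cells (cDC2s). GM-CSF cDC1s and GM-CSF cDC2s, 2 libraries each, came through the same gates from mice injected once daily on 3 days with GM-CSF, a myeloid growth factor, and served as a second pair. In bulk RNA from sorted cells, fewer cells of a type and less RNA per cell cannot be told apart.

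Expression is given in FPKM, which counts the fragments of a transcript relative to its length and to all mapped fragments of the library. A fold change is the difference of mean log2(FPKM + 1), cDC1s minus cDC2s, with its standard error (SE) from limma, so that changes in genes of low FPKM come out too small. Calls required a Benjamini-Hochberg adjusted p under 0.05 and a difference of 1 or more on the log2 scale. Of 11335 genes tested, 2949 were called, which is 26.0%. Of these, 1133 were higher in cDC1s (10.0% of genes tested) and 1816 were lower (16%). Without cDC1s replicate 2, cDC2s replicate 1 or cDC2s replicate 2 the number called was 1911, 1266 or 1755. Libraries of the subsets did not overlap for 7382 genes (65.1%). A call is described as kept where it held without each of the 4 control libraries in turn and after a correction for transcript length, and 953 calls were kept (8.41%), 354 higher (3.12%) and 599 lower (5.28%).

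The control libraries differed in makeup. The FPKM total was 559140 and 627472 in cDC1s, against 444141 and 469641 in cDC2s. In cDC1s, 9610 and 9388 genes reached an FPKM of 1, against 10242 and 10047 genes in cDC2s. The 10 most abundant genes took 25.6% and 31.8% of the FPKM total in cDC1s, against 15.7% and 19.9% in cDC2s. Replicates correlated across genes at r = 0.947 in cDC1s and 0.956 in cDC2s, with an SD between replicates of 0.517 and 0.423 on the log2 scale. The median fold change of all genes was -0.26, and length correction, quantile normalization and median-of-ratios scaling shifted it by 0.29, 0.27 and 0.18. Among calls, 38.4% were higher in cDC1s, against 51.6%, 52.2% and 51.6% under those 3 scalings. With 2 libraries a subset, an exact permutation test of a single gene cannot give a two-sided p below 0.333. The p-values here thus come from the model across genes and measure a spread pooled over 8 cDC libraries. Of these, 4 came from GM-CSF-treated mice, with an SD between replicates of 0.419 in cDC1s and 0.421 in cDC2s. Control cDC1s varied more, so the pooled value may understate their spread. A fit to the 4 control libraries alone called 1531 genes.

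The genes behind the sort gates were read as a check of the labels. Xcr1 had 188 and 235 FPKM in cDC1s, against 1.69 and 0.442 FPKM in cDC2s. Clec4a4, which encodes the antigen of the 33D1 antibody, was 0 and 0 FPKM in cDC1s, against 151 and 151 FPKM in cDC2s. Itgax, which encodes CD11c, had 62.6 and 26.97 FPKM in cDC1s, against 169 and 222 FPKM in cDC2s, and the MHC class II gene H2-Aa had 10555 and 14039 FPKM in cDC1s, against 5647 and 7749 FPKM in cDC2s. Both subsets thus carried the genes of the shared DC gate, and each carried the gene of its own sort antibody.

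The highest fold changes (12 genes, with a group mean of at least 10 FPKM and predicted genes left out) were those of receptors, enzymes, an interferon-inducible gene and the regulator Irf8. Ifi205, an interferon-inducible gene of the IFI200 family, had 662 and 1113 FPKM in cDC1s, against 2.73 and 1.52 FPKM in cDC2s (log2 fold change 8.13 ± 0.31, SE, adjusted p = 2.82e-05). Cd8a, which encodes the α chain of CD8 carried by spleen cDC1s, had 320.1 and 344 FPKM in cDC1s, against 1.42 and 1.26 FPKM in cDC2s (7.15 ± 0.30). Clec9a, a receptor for actin exposed by dead cells, had 67.1 and 75.1 FPKM in cDC1s, against 0.0515 and 0.106 FPKM in cDC2s (6.06 ± 0.28). Each was abundant in both cDC1 libraries and close to 0 in both cDC2 libraries. Rab7b, a small GTPase of endosomal and lysosomal traffic, had 188 and 239 FPKM in cDC1s, against 0.283 and 0.0452 FPKM in cDC2s (7.52 ± 0.28). Cd36, a scavenger receptor for lipids and dying cells, had 204 and 149 FPKM in cDC1s, against 0 and 0.537 FPKM in cDC2s (7.14 ± 0.38). P2ry14, a receptor for UDP-sugars, had 146 and 139 FPKM in cDC1s, against 0.569 and 0.131 FPKM in cDC2s (6.75 ± 0.28). Gcsam (a signalling adaptor), Pdia5 (a disulfide isomerase), Hepacam2 (an adhesion molecule) and Cd207 (langerin) completed these 12 genes with Xcr1 and Irf8, and had fold changes between 5.80 and 6.75.

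In the other direction, Sirpa, the receptor that binds CD47 and marks cDC2s, had 2.44 and 0.662 FPKM in cDC1s, against 213 and 302 FPKM in cDC2s (-6.73 ± 0.37, adjusted p = 7.08e-05). Dtx1, an E3 ligase induced by Notch signalling, had 0.865 and 0.0372 FPKM in cDC1s, against 175 and 226 FPKM in cDC2s (-7.17 ± 0.34). Tgm2, the protein-crosslinking enzyme transglutaminase 2, had 2.48 and 0.388 FPKM in cDC1s, against 229 and 324 FPKM in cDC2s (-6.96 ± 0.47). For each of these genes both cDC1 libraries lay far below both cDC2 libraries. Ptgs2, the inducible cyclooxygenase of prostaglandin synthesis, had 0.183 and 0.135 FPKM in cDC1s, against 94.8 and 99.7 FPKM in cDC2s (-6.41 ± 0.43), and Ptger3, a receptor for prostaglandin E2, had 0.0130 and 0.476 FPKM in cDC1s, against 65.9 and 65.6 FPKM in cDC2s (-5.77 ± 0.35). Cybb, the catalytic subunit of the phagocyte NADPH oxidase, had 0.186 and 0.755 FPKM in cDC1s, against 79.4 and 140.2 FPKM in cDC2s (-6.21 ± 0.36). Slc2a3, a glucose transporter, had 0 and 0.184 FPKM in cDC1s, against 56.997 and 70.01 FPKM in cDC2s (-5.88 ± 0.32), and S100a4, a calcium-binding protein, had 0.977 and 2.32 FPKM in cDC1s, against 209.7 and 146 FPKM in cDC2s (-6.10 ± 0.34). Sirpb1a led the list at -7.31, but it has near-identical neighbours (Sirpb1b and Sirpb1c) that may share reads. St8sia6 (a sialyltransferase) and Cyp4f37 (a cytochrome P450) completed the 12 genes lowest in cDC1s beside the gate gene Clec4a4. Calls of all 24 genes were kept, and 117 genes in all were called at 4 or more in size, 45 higher and 72 lower.

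**Figure D1:**
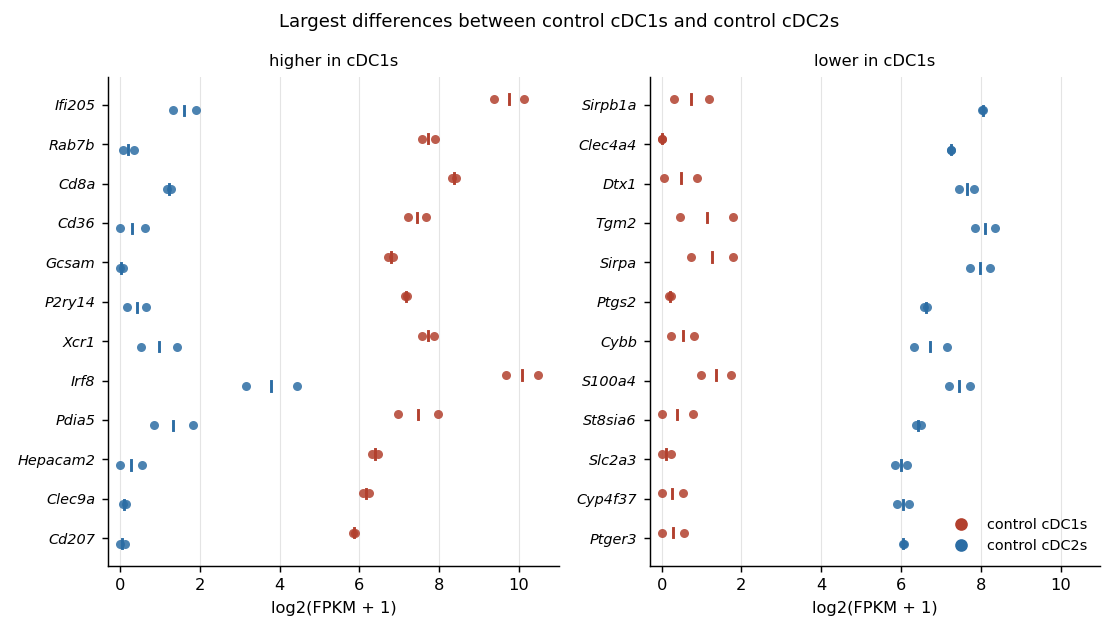
Levels of the 12 genes with the largest fold change in each direction, as log2(FPKM + 1) on the x axis, in control cDC1s (red) and control cDC2s (blue). Each point is 1 library and each bar the mean of 2. In all 24 genes the points of the subsets lie apart, with Irf8 in cDC2s, at 20.6 and 7.85 FPKM, the highest of the low groups.

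Ifi205 was among the genes highest in cDC1s, while of 32 interferon-stimulated genes 19 were called lower and 2 higher (0 kept). Promoters of some genes from either side are shown, in RefSeq sequence of GRCm38.p6. Every promoter shown holds the motif, so the display cannot show how often it occurs. The motif searched was the core of the interferon-stimulated response element (ISRE), which is GAAA, any 2 bases and again GAAA, on both strands, from 250 bases before to 50 bases after a transcript start. Each line gives up to 25 bases on either side, 5′ to 3′ along the gene, with the motif in capitals.
Ifi205: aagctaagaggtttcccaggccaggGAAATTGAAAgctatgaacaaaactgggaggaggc
Mnda: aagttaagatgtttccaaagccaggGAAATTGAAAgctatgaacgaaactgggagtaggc
Oas1a: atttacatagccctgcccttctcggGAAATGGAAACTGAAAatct
Ifit1: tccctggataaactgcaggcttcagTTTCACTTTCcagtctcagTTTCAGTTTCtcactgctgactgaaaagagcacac
Ifit3: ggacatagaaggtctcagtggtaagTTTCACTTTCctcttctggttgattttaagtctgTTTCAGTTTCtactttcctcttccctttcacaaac
Cybb: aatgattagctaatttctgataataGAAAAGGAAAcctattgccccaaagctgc
Ifi205 (chr1:174031855-174031914, minus strand) and Mnda (chr1:173913049-173913108, minus strand), both higher in cDC1s, hold windows that differ at 6 of 60 bases, with the motif 134 to 125 and 37 to 28 bases before a transcript start. Oas1a (chr5:120907526-120907570, minus strand) holds 2 overlapping motifs, 20 to 5 bases before the start. Ifit1 (chr19:34640760-34640838, plus strand) and Ifit3 (chr19:34583348-34583441, plus strand) hold 2 motifs each as the reverse complement, 104 to 76 and 156 to 113 bases before the start. These 3 genes and Cybb (chrX:9469325-9469378, minus strand, 29 to 20 bases before the start) were lower in cDC1s.

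Over all promoters, the motif was found near genes that moved in either direction. It was in 4.40% of promoters of genes higher in cDC1s, in 5.10% of promoters of genes lower in cDC1s and in 3.42% of all 11420 promoters of the genes tested. With calls made after length correction the shares were 3.45% for higher and 6.53% for lower genes. The Ets-IRF composite element (GGAA, any 2 bases and GAAA), to which IRF8 and IRF4 bind with PU.1, was in 2.15% of higher, 3.19% of lower and 2.51% of all promoters. The AP-1 element, TGANTCA, bound by BATF family dimers, was in 6.28%, 6.23% and 5.06%. A match is a description of the letters and not of binding.

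Of 25 genes known for cDC1s, 23 were called higher in control cDC1s and 0 lower, 22 of them kept, with a median fold change of 4.11 against -0.26 over all genes tested. The gate genes Xcr1 and Clec4a4 are counted in the cDC1 and cDC2 lists. Amica1 is counted both in the cDC2 list and in the list of genes of all cDCs. The cDC1 list holds antigen receptors and adhesion molecules as well as enzymes of the lysosome. Cadm1, an adhesion molecule of the nectin-like family, had 158 and 229 FPKM in cDC1s, against 5.46 and 2.07 FPKM in cDC2s (5.42 ± 0.41). Naaa, a lysosomal amidase, had 1017 and 1145 FPKM in cDC1s, against 20.5 and 17.8 FPKM in cDC2s (5.75 ± 0.23), and Ppt1, a lysosomal thioesterase, had 2256 and 1939 FPKM in cDC1s, against 70.3 and 73.8 FPKM in cDC2s (4.84 ± 0.21). Itgae, which encodes CD103, was called at 14.6 and 4.67 FPKM in cDC1s, against 0.0289 and 0.00350 FPKM in cDC2s (3.21 ± 0.49). The cDC1 libraries differed more for Itgae than for the genes above, but both exceeded both cDC2 libraries. Ly75, which encodes the endocytic receptor CD205, was at 5.76 and 17.5 FPKM in cDC1s, against 0.949 and 2.73 FPKM in cDC2s, and its call at 2.05 was lost without cDC1s replicate 2 (1.33, adjusted p = 0.175), without cDC2s replicate 1 (1.59, adjusted p = 0.193) and without cDC2s replicate 2 (2.52, adjusted p = 0.064). Rab43 and Wdfy4, which take part in cross-presentation, were the members not called, with fold changes of 0.71 and 0.49.

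Of 27 genes known for cDC2s (85.2% called), 18 were lower in cDC1s (15 kept) and 5 higher (4 kept), with a median of -2.81. Itgam, the integrin chain CD11b, had 0.0506 and 0.124 FPKM in cDC1s, against 33.3 and 50.3 FPKM in cDC2s (-5.27 ± 0.33). Cd209a, a lectin of the DC-SIGN family, had 4.39 and 5.72 FPKM in cDC1s, against 227 and 224 FPKM in cDC2s (-5.23 ± 0.26), and Cd4, carried by many spleen cDC2s, had 1.57 and 0.512 FPKM in cDC1s, against 106 and 94.4 FPKM in cDC2s (-5.68 ± 0.43). Esam, an adhesion molecule of NOTCH2-dependent cDC2s, had 7.23 and 4.16 FPKM in cDC1s, against 58.9 and 73.9 FPKM in cDC2s (-3.36 ± 0.40). All of these separated the libraries by subset without overlap. The members that went the other way were Clec12a, Ccr2, Lyz2, Fcgr2b and Amica1. Clec12a, a lectin that senses uric acid crystals, had 123 and 149 FPKM in cDC1s, against 8.39 and 4.98 FPKM in cDC2s (4.18 ± 0.27), and Ccr2, the receptor for the chemokine CCL2, had 9.55 and 20.2 FPKM in cDC1s, against 0.137 and 1.31 FPKM in cDC2s (3.21 ± 0.48). Lyz2, lysozyme, had 475 and 629 FPKM in cDC1s, against 138 and 116 FPKM in cDC2s (2.11 ± 0.27), and Fcgr2b, the inhibitory Fcγ receptor, had 71.04 and 56.2 FPKM in cDC1s, against 21.1 and 12.9 FPKM in cDC2s (1.87 ± 0.29). The call of Amica1 (JAML), a junctional adhesion molecule, at 1.03 was lost without cDC1s replicate 2 (0.91, adjusted p = 0.0241) and without cDC2s replicate 1 (1.02, adjusted p = 0.0533). Clec10a and Mgl2, which encode the lectins CD301a and CD301b, were under 1 FPKM in all 4 control libraries. By flow cytometry, the authors found CD301b protein on only a small subset of spleen cDC2s.

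Among 15 genes of all cDCs (46.7% called), 3 were higher (2 kept) and 4 lower (2 kept), with a median of -0.77. Flt3, the receptor that cDCs need for growth, was at 117 and 112 FPKM in cDC1s, against 88.01 and 95.3 FPKM in cDC2s and was not called (0.32 ± 0.19). Spi1, which encodes PU.1, had libraries that overlapped between the subsets, at 591 and 498 FPKM in cDC1s, against 489 and 643 FPKM in cDC2s (-0.05 ± 0.23, not called). Cst3, which encodes the protease inhibitor cystatin C, had 16053 and 22050.0 FPKM in cDC1s, against 523 and 816 FPKM in cDC2s (4.85 ± 0.38), among the most abundant transcripts of cDC1s. Kit, the receptor of stem cell factor, was called at 21.2 and 11.03 FPKM in cDC1s, against 65.2 and 108 FPKM in cDC2s (-2.38 ± 0.41). Zbtb46, a cDC transcription factor, had 53.2 and 26.7 FPKM in cDC1s, against 86.7 and 122 FPKM in cDC2s, and its call at -1.42 was lost without cDC1s replicate 2 (-0.94, adjusted p = 0.0535), without cDC2s replicate 1 (-1.66, adjusted p = 0.0549), without cDC2s replicate 2 (-1.18, adjusted p = 0.103) and after length correction (-0.81, adjusted p = 0.0915).

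Among transcription factors that decide cDC fate, Irf8, Id2 and Irf4 followed the lineages. Irf8 had 1419.9 and 821 FPKM in cDC1s, against 20.6 and 7.85 FPKM in cDC2s (6.29 ± 0.45, adjusted p = 0.000164). Id2, an inhibitor of E proteins needed by cDC1s, had 1628 and 1565 FPKM in cDC1s, against 241 and 173 FPKM in cDC2s (2.96 ± 0.23). Irf4 had 0.511 and 0.126 FPKM in cDC1s, against 14.7 and 13.2 FPKM in cDC2s (-3.52 ± 0.30), and the group as a whole leaned to cDC2s. Of 32 tested, 4 were higher (2 kept), 12 lower (5 kept) and 16 not called, with a median of -1.16 (-0.68 after length correction). Relb, the NF-κB subunit that ESAM+ cDC2s rely on, had 69.1 and 26.9 FPKM in cDC1s, against 354 and 359.9 FPKM in cDC2s (-3.02 ± 0.42). Tbx21, which encodes T-bet, had 0.134 and 0.0271 FPKM in cDC1s, against 31.2 and 19.6 FPKM in cDC2s (-4.58 ± 0.34), and Zeb2, a repressor that opposes cDC1 fate, had 0.00170 and 0.205 FPKM in cDC1s, against 5.50 and 8.85 FPKM in cDC2s (-2.86 ± 0.39). Spib, an Ets factor, had 1.37 and 0.0928 FPKM in cDC1s, against 23.9 and 11.8 FPKM in cDC2s (-3.47 ± 0.47). For each of these the cDC1 libraries were both below the cDC2 libraries. Batf3 stood on less firm ground. It had 203 and 265 FPKM in cDC1s, against 92.8 and 66.8 FPKM in cDC2s (1.55 ± 0.36, adjusted p = 0.0174), so cDC2s also held it, and the call was lost without cDC1s replicate 2 (1.35, adjusted p = 0.0828), without cDC2s replicate 1 (1.78, adjusted p = 0.0559), without cDC2s replicate 2 (1.31, adjusted p = 0.096) and after length correction (0.98, adjusted p = 0.05003).

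The Notch2 and lymphotoxin pathway, which supports spleen cDC2s, had 11 of 21 members lower in cDC1s (5 kept) and 1 higher (0 kept). Its share called was 57.1% and its median -1.29. The receptor Notch2 itself had 2.81 and 2.82 FPKM in cDC1s, against 3.33 and 7.78 FPKM in cDC2s and was not called (-0.69 ± 0.40). The kept members were the target Dtx1, Cd4, Esam, Relb and the ligand Lta, at 0.0667 and 1.20 FPKM in cDC1s, against 9.98 and 6.36 FPKM in cDC2s (-2.55 ± 0.41). Of these, Dtx1, Cd4 and Esam are also counted in the cDC2 list, and Relb among the fate transcription factors. Ltb, lymphotoxin β, had 40.8 and 9.81 FPKM in cDC1s, against 466 and 230.4 FPKM in cDC2s (-3.95 ± 0.78), and its call was lost without cDC1s replicate 2 (-2.98, adjusted p = 0.0523) and without cDC2s replicate 1 (-3.44, adjusted p = 0.0752). Hes1, a common Notch target, was at 27.1 and 35.5 FPKM in cDC1s, against 40.98 and 46.2 FPKM in cDC2s and was not called (-0.47 ± 0.27).

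Antigen presentation genes were called at shares of 29.6% (class I list) and 29.4% (class II list), near the 26.0% of all genes tested. For MHC class I and cross-presentation, 5 of 27 were higher (3 kept) and 3 lower (1 kept), with a median of 0.05. Psme1 and Psme2, the subunits of the proteasome activator PA28, had 812 and 1049 FPKM in cDC1s, against 253 and 269 FPKM in cDC2s (1.82 ± 0.23) and 719 and 989 FPKM in cDC1s, against 274 and 260.0 FPKM in cDC2s (1.66 ± 0.24). Pdia3, a chaperone of the peptide-loading complex, had 566 and 508 FPKM in cDC1s, against 232 and 199 FPKM in cDC2s (1.32 ± 0.20). The peptide transporter gene Tap1 was not called, with 243 and 112 FPKM in cDC1s, against 149 and 164 FPKM in cDC2s (0.08 ± 0.36), nor was H2-K1, a class I heavy chain (-0.16 ± 0.24), or B2m, its light chain (0.36 ± 0.43). The kept decrease was Cybb, whose oxidase limits acidification of phagosomes.

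For MHC class II presentation, 1 of 17 was higher (kept) and 4 were lower (2 kept), with a median of -0.15. Cd74, the invariant chain, had 38703 and 34475 FPKM in cDC1s, against 21092 and 35985 FPKM in cDC2s and was not called (0.41 ± 0.57), and H2-Aa, H2-Ab1 and H2-Eb1 had fold changes of 0.88, 0.86 and 0.78, none of them called. The β chains of the peptide-exchange factor H2-DM moved apart. H2-DMb1 had 1206 and 1152 FPKM in cDC1s, against 426 and 333 FPKM in cDC2s (1.64 ± 0.23), while H2-DMb2 had 348 and 335 FPKM in cDC1s, against 1041 and 1249.5 FPKM in cDC2s (-1.74 ± 0.21). These neighbours are similar in sequence, so the split of reads between them is uncertain. H2-Eb2, a class II β chain gene, had 0.975 and 1.86 FPKM in cDC1s, against 23.7 and 24.5 FPKM in cDC2s (-3.40 ± 0.33). Ciita, the class II transactivator, had 86.96 and 47.8 FPKM in cDC1s, against 124 and 141 FPKM in cDC2s, and its call at -1.02 was lost without cDC1s replicate 2 (-0.60, adjusted p = 0.124), without cDC2s replicate 1 (-1.11, adjusted p = 0.122), without cDC2s replicate 2 (-0.94, adjusted p = 0.154) and after length correction (-0.41, adjusted p = 0.322).

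**Figure D2:**
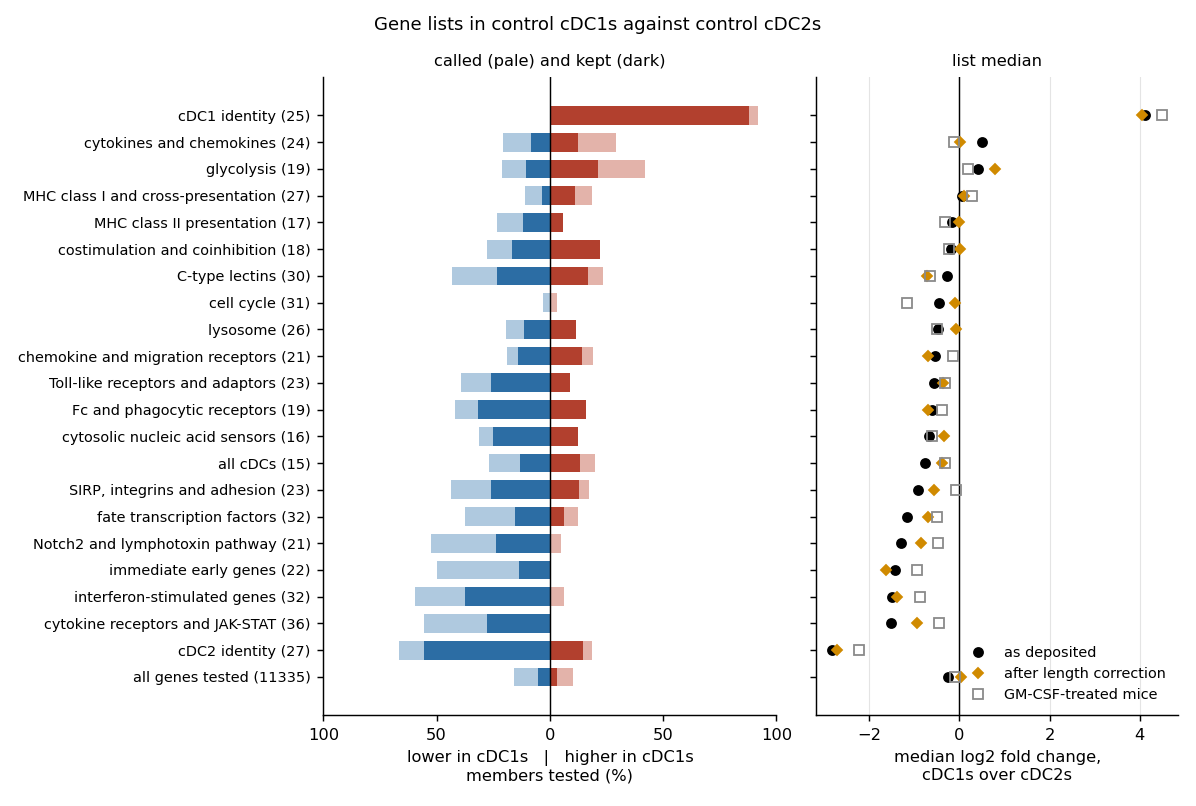
Gene lists in control cDC1s against control cDC2s, with the number of members tested in brackets. Left, percent of members called higher (red, to the right) or lower (blue, to the left), with kept calls dark and other calls pale. Right, the list median of the log2 fold change as deposited (circles), after length correction (diamonds) and in GM-CSF-treated mice (squares). The cDC1 list is at 4.11 and the cDC2 list at -2.81, against -0.26 for all genes tested.

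Genes of pattern recognition had calls on both sides. Of 23 Toll-like receptors (TLRs) and adaptors (47.8% called), 2 were higher in cDC1s (both kept) and 9 lower (6 kept). The median was -0.56. Tlr3, the receptor for double-stranded RNA, had 24.4 and 33.3 FPKM in cDC1s, against 1.13 and 2.42 FPKM in cDC2s (3.45 ± 0.42), and Tlr11, which recognizes profilin of protozoa, had 56.3 and 46.7 FPKM in cDC1s, against 3.04 and 5.97 FPKM in cDC2s (3.30 ± 0.34). Tlr7, the receptor for single-stranded RNA, was all but missing from cDC1s, at 0 and 0.00877 FPKM in cDC1s, against 24.1 and 21.9 FPKM in cDC2s (-4.58 ± 0.27). Tlr1, which pairs with TLR2 to bind bacterial lipopeptides, had 2.02 and 1.10 FPKM in cDC1s, against 56.6 and 40.4 FPKM in cDC2s (-4.28 ± 0.32). Tlr5, the flagellin receptor, was listed at 0 in both cDC1 libraries and at 3.11 and 8.35 FPKM in cDC2s. Tlr13, a receptor for bacterial ribosomal RNA, had 7.46 and 7.37 FPKM in cDC1s, against 26.7 and 44.97 FPKM in cDC2s (-2.08 ± 0.36). Adaptors moved as well. Ticam2, an adaptor of TLR4, had 2.50 and 0.664 FPKM in cDC1s, against 27.9 and 25.2 FPKM in cDC2s (-3.51 ± 0.41), and Traf6, a ubiquitin ligase downstream of MYD88, had 2.06 and 3.09 FPKM in cDC1s, against 17.5 and 16.7 FPKM in cDC2s (-2.35 ± 0.31). Myd88 itself was at 102 and 81.7 FPKM in cDC1s, against 133 and 134 FPKM in cDC2s and was not called (-0.54 ± 0.20).

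Cytosolic sensors of nucleic acids also had calls on both sides. Of 16, 2 were higher (both kept) and 5 lower (4 kept), with a median of -0.67. Their share called was 43.8%, against 26.0% of all genes tested. The increases were Ifi205 and Mnda, members of the IFI200 family, in which related genes may share reads. Mnda had 209 and 291 FPKM in cDC1s, against 5.87 and 2.75 FPKM in cDC2s (5.61 ± 0.34). The RNA helicases were on the other side. Ddx58, which encodes RIG-I, had 0.103 and 0.187 FPKM in cDC1s, against 33.4 and 22.97 FPKM in cDC2s (-4.65 ± 0.38), and Ifih1, which encodes MDA5, had 2.28 and 2.80 FPKM in cDC1s, against 11.3 and 15.2 FPKM in cDC2s (-2.0 ± 0.33). Dhx58, their relative LGP2, had 19.1 and 15.8 FPKM in cDC1s, against 46.1 and 41.7 FPKM in cDC2s (-1.29 ± 0.21). All 3 helicase genes were thus lower in cDC1s with no overlap of libraries. The DNA sensor gene Mb21d1 (cGAS) was at 3.78 and 6.42 FPKM in cDC1s, against 6.38 and 4.13 FPKM in cDC2s and was not called (-0.05 ± 0.36).

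Interferon-stimulated genes were mostly lower in cDC1s. Of 32 (65.6% called), 19 were lower (12 kept) and 2 higher (0 kept), with a median of -1.49. After length correction 19 were lower and 0 higher. Oasl2, of the oligoadenylate synthetase family, had 0.147 and 0.629 FPKM in cDC1s, against 41.5 and 43.2 FPKM in cDC2s (-4.99 ± 0.30, adjusted p = 9.69e-05). Rtp4, an interferon-induced chaperone of membrane receptors, had 1.99 and 0.0770 FPKM in cDC1s, against 55.4 and 54.6 FPKM in cDC2s (-4.96 ± 0.47). Ifit1 and Ifit3, which bind foreign RNA or act with proteins that do, had 1.08 and 0.0983 FPKM in cDC1s, against 23.4 and 27.8 FPKM in cDC2s (-4.13 ± 0.41) and 2.51 and 2.06 FPKM in cDC1s, against 47.2 and 56.5 FPKM in cDC2s (-4.01 ± 0.31). Oas1a, which makes 2′-5′ oligoadenylate, had 4.69 and 6.28 FPKM in cDC1s, against 44.9 and 57.7 FPKM in cDC2s (-3.01 ± 0.30), and Oas2 was listed at 0 in both cDC1 libraries and at 11.1 and 6.84 FPKM in cDC2s. Ifitm1, which hinders virus entry, had 0.0612 and 0.285 FPKM in cDC1s, against 23.7 and 37.9 FPKM in cDC2s (-4.73 ± 0.34). The difference was not shared by the whole list. Isg15 had 18.02 and 19.4 FPKM in cDC1s, against 28.4 and 35.5 FPKM in cDC2s (-0.73 ± 0.25) and Irf7 had 128 and 101 FPKM in cDC1s, against 88.9 and 96.9 FPKM in cDC2s (0.30 ± 0.20), and neither was called. The 2 genes higher in cDC1s, Bst2 at 1.24 and Ifi35 at 1.09, were lost after length correction, at 0.57 and 0.65, and Ifi35 also without control cDC2s replicate 1, at 1.01 (adjusted p = 0.0517).

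**Figure D3:**
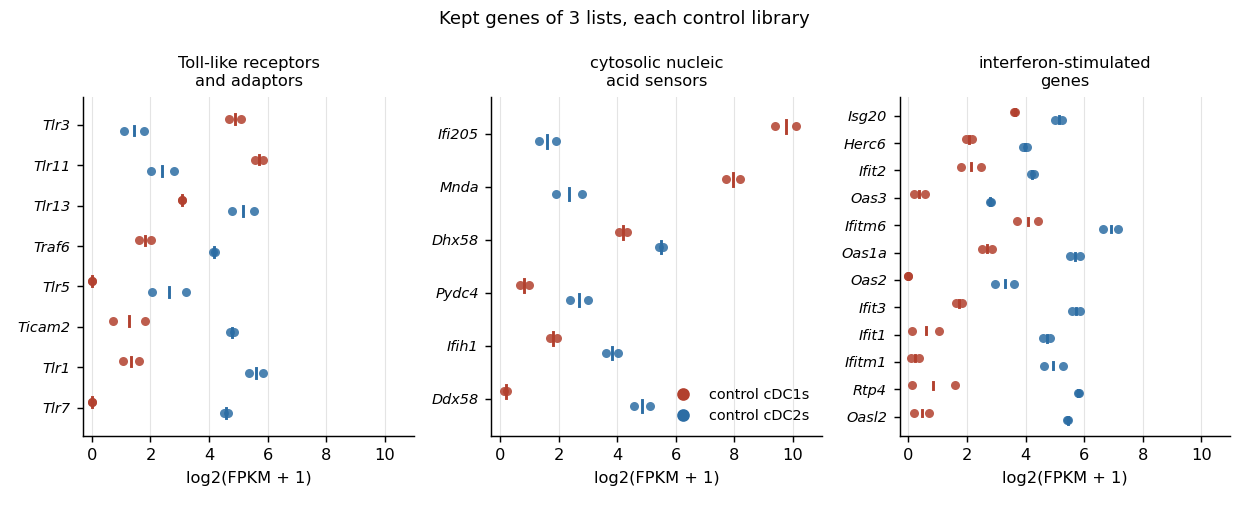
Kept genes among Toll-like receptors and adaptors, cytosolic nucleic acid sensors and interferon-stimulated genes, as log2(FPKM + 1) on the x axis, in control cDC1s (red) and control cDC2s (blue). Each point is 1 library and each bar the mean of 2. Tlr3, Tlr11, Ifi205 and Mnda lie higher in cDC1s, and the other genes shown, among them all 12 interferon-stimulated genes, lie lower.

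Cytokine receptors and JAK-STAT genes were called in 1 direction only. Of 36 (55.6% called), 20 were lower in cDC1s (10 kept) and 0 higher, with a median of -1.52. Receptor chains, kinases and STAT factors were all among them. Il21r, the receptor for interleukin 21, had 6.52 and 4.06 FPKM in cDC1s, against 140.4 and 127 FPKM in cDC2s (-4.45 ± 0.49), and Il2rg, the common γ chain, had 42.9 and 55.98 FPKM in cDC1s, against 358 and 450.1 FPKM in cDC2s (-3.01 ± 0.24). Csf1r, which encodes CD115, the receptor for M-CSF, had 6.58 and 1.09 FPKM in cDC1s, against 65.4 and 74.4 FPKM in cDC2s (-4.15 ± 0.54). Of the kinases, Jak3, the partner of the γ chain, had 3.83 and 1.35 FPKM in cDC1s, against 24.3 and 31.3 FPKM in cDC2s (-3.08 ± 0.40), and Jak2 had 24.4 and 23.7 FPKM in cDC1s, against 83.4 and 90.6 FPKM in cDC2s (-1.81 ± 0.30). Of the STAT factors, Stat4, which acts after interleukin 12, had 0.238 and 0.242 FPKM in cDC1s, against 17.1 and 19.6 FPKM in cDC2s (-3.96 ± 0.33), and Stat3, which acts after FLT3 ligand and interleukin 10, had 37.9 and 24.8 FPKM in cDC1s, against 89.3 and 104 FPKM in cDC2s (-1.62 ± 0.25). Tgfbr2, a receptor chain for TGFβ, had 3.09 and 3.998 FPKM in cDC1s, against 16.1 and 24.4 FPKM in cDC2s (-2.21 ± 0.30). Csf2ra, the α chain of the GM-CSF receptor, was at 183 and 122 FPKM in cDC1s, against 101 and 145 FPKM in cDC2s and was not called (0.30 ± 0.33). After length correction 14 were lower and 0 higher, with a median of -0.94.

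Chemokine receptors and other receptors of migration had 4 of 21 higher (3 kept) and 4 lower (3 kept), with a median of -0.54. Their share called was 38.1%, against 26.0% of all genes tested. Beside the gate gene Xcr1, Cxcr3, the receptor for CXCL9 and CXCL10, had 63.5 and 67.9 FPKM in cDC1s, against 5.02 and 4.24 FPKM in cDC2s (3.57 ± 0.31), and Ccr2 was given above. Gpr183 (EBI2), a receptor for oxysterols that places cDC2s in the bridging channels of the spleen, had 2.77 and 8.13 FPKM in cDC1s, against 89.99 and 116 FPKM in cDC2s (-4.14 ± 0.42). Ccr6, the receptor for CCL20, had 0 and 0.0591 FPKM in cDC1s, against 12.1 and 29.6 FPKM in cDC2s (-4.28 ± 0.43), and Cx3cr1, the fractalkine receptor, had 0 and 0.0830 FPKM in cDC1s, against 5.99 and 4.13 FPKM in cDC2s (-2.52 ± 0.32). Ccr7, the receptor for entry into T cell zones, was at 249.9 and 267 FPKM in cDC1s, against 423 and 589.7 FPKM in cDC2s and was not called (-0.95 ± 0.54).

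Of 24 cytokines and chemokines, 7 were higher (3 kept) and 5 lower (2 kept), with a median of 0.51. Cxcl9, which attracts CXCR3+ T cells, had 128 and 127 FPKM in cDC1s, against 2.37 and 1.97 FPKM in cDC2s (5.34 ± 0.26). Il12b, the p40 chain of interleukins 12 and 23, had 28.6 and 34.4 FPKM in cDC1s, against 3.33 and 3.97 FPKM in cDC2s (2.80 ± 0.49), and Cxcl16 had 116 and 144 FPKM in cDC1s, against 34.5 and 27.2 FPKM in cDC2s (2.04 ± 0.30). Ccl3 and Ccl4, inflammatory chemokines, had 2.28 and 4.85 FPKM in cDC1s, against 145 and 160.4 FPKM in cDC2s (-5.13 ± 0.45) and 23.6 and 42.7 FPKM in cDC1s, against 262 and 252 FPKM in cDC2s (-2.98 ± 0.43). The CXCR3 ligand Cxcl9 and these chemokines thus lay on opposite sides. Interleukin 1β (Il1b) was at 173 and 167 FPKM in cDC1s, against 348 and 259 FPKM in cDC2s and was not called (-0.82 ± 0.43).

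C-type lectins, receptors that bind sugars and self ligands, had 7 of 30 higher (5 kept) and 13 lower (7 kept). Their share called was 66.7% and their median -0.28. Cd207 had 58.4 and 55.9 FPKM in cDC1s, against 0 and 0.0886 FPKM in cDC2s (5.80 ± 0.27), and Klrk1, which encodes NKG2D, had 52.1 and 67.7 FPKM in cDC1s, against 13.3 and 8.37 FPKM in cDC2s (2.38 ± 0.32). Klrd1, which encodes CD94, had 5.03 and 10.8 FPKM in cDC1s, against 88.2 and 69.2 FPKM in cDC2s (-3.23 ± 0.37). The inhibitory and activating DCIR family lay on the cDC2 side, with fold changes of -5.26 for Clec4a1, -3.65 for Clec4a2 and -4.65 for Clec4a3, though these neighbours of Clec4a4 are similar and may share reads. Clec7a, which encodes the β-glucan receptor Dectin-1, had 2.103 and 3.89 FPKM in cDC1s, against 29.5 and 23.5 FPKM in cDC2s, and its call at -2.81 was lost without cDC1s replicate 1 (-2.48, adjusted p = 0.0711), without cDC1s replicate 2 (-3.14, adjusted p = 0.0537), without cDC2s replicate 1 (-2.65, adjusted p = 0.105) and without cDC2s replicate 2 (-2.97, adjusted p = 0.0702).

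Fc and phagocytic receptors (57.9% called) had 3 of 19 higher (all kept) and 8 lower (6 kept), with a median of -0.61. Fcgrt, the neonatal Fc receptor, had 209 and 143 FPKM in cDC1s, against 59.998 and 60.4 FPKM in cDC2s (1.51 ± 0.23), and Cd36 was given above. Fcer1g, the signalling γ chain of Fc receptors, had 40.5 and 64.7 FPKM in cDC1s, against 375 and 417 FPKM in cDC2s (-2.92 ± 0.30). Cd300ld and Cd300lf, of the CD300 family of lipid receptors, had 0.154 and 0.0274 FPKM in cDC1s, against 44.5 and 50.3 FPKM in cDC2s (-5.47 ± 0.30) and 3.52 and 2.86 FPKM in cDC1s, against 104 and 131 FPKM in cDC2s (-4.81 ± 0.29). In adhesion genes (60.9% called), 4 of 23 were higher (3 kept) and 10 lower (6 kept), with a median of -0.92. Integrin chains were on both sides, since Itgae was higher while Itgam, Itgax and Itgad were lower in cDC1s.

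Costimulation and coinhibition genes had 4 of 18 higher (all kept) and 5 lower (3 kept), with a median of -0.19. Cd86, a ligand of CD28, had 189 and 148 FPKM in cDC1s, against 49.2 and 59.7 FPKM in cDC2s (1.61 ± 0.25), and Btla, a coinhibitory receptor, had 90.02 and 97.2 FPKM in cDC1s, against 21.2 and 18.5 FPKM in cDC2s (2.18 ± 0.30). Cd24a, a glycoprotein that marks cDC1s, had 165 and 233 FPKM in cDC1s, against 13.6 and 7.89 FPKM in cDC2s (4.11 ± 0.30). Lower in cDC1s were Cd274, Pdcd1lg2, Icosl, Cd80 and the receptor gene Cd200r1. Cd274 (PD-L1) had 5.62 and 5.39 FPKM in cDC1s, against 60.02 and 72.7 FPKM in cDC2s (-3.37 ± 0.33), Pdcd1lg2 (PD-L2) had 0.0604 and 0.525 FPKM in cDC1s, against 12.2 and 9.04 FPKM in cDC2s (-3.18 ± 0.34), and Icosl, the ligand of ICOS, had 37.1 and 10.5 FPKM in cDC1s, against 145 and 139 FPKM in cDC2s (-2.77 ± 0.49). Cd80, a ligand of CD28 like Cd86, had 12.1 and 7.84 FPKM in cDC1s, against 19.6 and 22.8 FPKM in cDC2s, and its call at -1.04 was lost without cDC1s replicate 2 (-0.76, adjusted p = 0.169), without cDC2s replicate 1 (-1.15, adjusted p = 0.133), without cDC2s replicate 2 (-0.94, adjusted p = 0.179) and after length correction (-0.66, adjusted p = 0.142). Cd200r1, the receptor of CD200, had 5.66 and 6.12 FPKM in cDC1s, against 19.2 and 17.05 FPKM in cDC2s, and its call at -1.47 was lost without cDC2s replicate 1 (-1.39, adjusted p = 0.0513). Cd40 was at 85.9 and 63.6 FPKM in cDC1s, against 77.4 and 80.2 FPKM in cDC2s and was not called (-0.09 ± 0.22).

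Glycolysis was among the lists with more increases than decreases. Of 19 (63.2% called), 8 were higher in cDC1s (4 kept) and 4 lower (2 kept), with a median of 0.42. Hk3, a hexokinase of myeloid cells, had 41.3 and 15.98 FPKM in cDC1s, against 0 and 1.96 FPKM in cDC2s (3.96 ± 0.60), and Pgk1, phosphoglycerate kinase, had 179 and 151 FPKM in cDC1s, against 56.3 and 57.6 FPKM in cDC2s (1.51 ± 0.22). Pgam1, phosphoglycerate mutase, had 182 and 153 FPKM in cDC1s, against 74.9 and 62.96 FPKM in cDC2s (1.27 ± 0.20), and Aldoc, an aldolase, had 9.92 and 12.3 FPKM in cDC1s, against 0 and 1.24 FPKM in cDC2s (3.01 ± 0.43). The transporters went the other way, with Slc2a3 above and the lactate exporter Slc16a3 at 0.590 and 0.324 FPKM in cDC1s, against 4.62 and 5.81 FPKM in cDC2s (-2.09 ± 0.31). The kept enzyme genes were thus higher and the kept transporter genes lower in cDC1s. This split did not hold for all calls, since the hexokinase gene Hk1 was called lower at -2.085. Its call was lost without cDC2s replicate 1 (-2.14) and without cDC2s replicate 2 (-2.03).

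Lysosome genes had 3 of 26 higher (all kept) and 5 lower (3 kept), with a median of -0.48. The share called was 30.8%, near the 26.0% of all genes tested. Beside Naaa and Ppt1, Npc2, a carrier of cholesterol, had 107 and 131 FPKM in cDC1s, against 23.9 and 25.04 FPKM in cDC2s (2.23 ± 0.21). The cathepsins Ctsa, Ctsc and Ctsd were lower, with Ctsd, an aspartic protease, at 28.05 and 15.9 FPKM in cDC1s, against 132 and 116 FPKM in cDC2s (-2.50 ± 0.30) and Ctsc, which activates granule proteases, at 18.7 and 21.1 FPKM in cDC1s, against 77.7 and 72.9 FPKM in cDC2s (-1.87 ± 0.21). Ctss, the protease that trims the invariant chain, was at 709 and 792 FPKM in cDC1s, against 781 and 829 FPKM in cDC2s and was not called (-0.10 ± 0.20). Cell cycle genes showed 1 call in each direction among 31 (6.45%, 0 kept), with a median of -0.44. Mki67, a marker of cycling cells, was at 3.88 and 4.69 FPKM in cDC1s, against 5.41 and 7.01 FPKM in cDC2s (-0.44 ± 0.69, not called).

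Immediate early genes, which many cells induce within minutes of stimulation or tissue handling, were lower in cDC1s in 11 of 22 (3 kept) and higher in 0, with a median of -1.43. Their summed level was 11201 and 7659 FPKM in cDC1s, against 27853 and 23961 FPKM in cDC2s. Egr1 had 127 and 69.3 FPKM in cDC1s, against 1004 and 1376 FPKM in cDC2s (-3.63 ± 0.47), Egr2 had 2.88 and 0.515 FPKM in cDC1s, against 26.95 and 38.99 FPKM in cDC2s (-3.79 ± 0.48) and Tnfaip3, an inhibitor of NF-κB signalling, had 17.8 and 13.6 FPKM in cDC1s, against 93.9 and 92.9 FPKM in cDC2s (-2.51 ± 0.28). Nr4a1 had 136 and 13.2 FPKM in cDC1s, against 1573 and 1144 FPKM in cDC2s (-4.93 ± 1.16), with the cDC1 libraries 10-fold apart, and its call was lost without cDC1s replicate 2 (-3.29, adjusted p = 0.0842), without cDC2s replicate 1 (-4.70, adjusted p = 0.101) and without cDC2s replicate 2 (-5.16, adjusted p = 0.0699). The part of this response in other genes lower in cDC1s, such as Ptgs2 or Ccl3, was not tested.

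Markers of other spleen cells were read in the same libraries. Of 11 red pulp macrophage markers tested, 0 were higher and 6 lower in cDC1s (2 kept), with a summed level of 167 and 52.0 FPKM in cDC1s, against 491 and 286 FPKM in cDC2s. Adgre1 (F4/80) had 3.95 and 1.22 FPKM in cDC1s, against 117 and 132 FPKM in cDC2s (-5.24 ± 0.38) and Slc40a1, the iron exporter, had 5.38 and 1.39 FPKM in cDC1s, against 52.6 and 27.1 FPKM in cDC2s (-3.31 ± 0.55), while Spic, the factor that defines these macrophages, was at 19.2 and 11.2 FPKM in cDC1s, against 11.5 and 9.04 FPKM in cDC2s (0.49 ± 0.60, not called). Of 8 classical monocyte markers, 2 were higher (both kept, the largest at 3.49) and 0 lower, with Ccr2 among the higher. The summed level of this list was 59.7 and 72.4 FPKM in cDC1s, against 8.12 and 13.1 FPKM in cDC2s. Its members Ly6c1, Vcan, Fn1 and F13a1 were under 1 FPKM in all 4 libraries. Of 7 non-classical monocyte markers, 1 was higher and 4 were lower (1 kept each), with the rise in Treml4, at 276 and 227 FPKM in cDC1s, against 78.9 and 62.8 FPKM in cDC2s (1.82 ± 0.21), and the kept decrease in Pglyrp1. Of 7 plasmacytoid DC markers, 3 were higher (0 kept) and 3 lower (2 kept). B cell markers were lower in 2 of 6 (Blk kept, Cd79b not), summing to 37.3 and 30.5 FPKM in cDC1s, against 39.0 and 58.2 FPKM in cDC2s. T cell markers were lower in 1 of 5 (Cd5, kept), with Cd3d under 1 FPKM in all 4. Neutrophil markers summed to at most 4.89 FPKM in any control library, with 0 of 8 called. Erythroid markers had 1 of 3 higher (0 kept) and 1 lower (kept), plasma cell markers 1 of 5 lower (the shared gene Irf4), markers of basophils, mast cells and eosinophils 1 of 3 lower (0 kept) and NK cell markers 0 of 2 called, while 0 platelet markers reached the filter. The part of such cells in the differences was not tested.

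The fold changes were then set against transcript length. Across 11268 genes with a known length, the fold change and the longest transcript of the gene had a Spearman rho of -0.36, and the 4 pairs of 1 cDC1 and 1 cDC2 library gave -0.36 to -0.29. Genes do not vary independently, and the rho is given without a p. Between replicates of a subset the rho was 0.08 in cDC1s and -0.02 in cDC2s, and in GM-CSF-treated mice it was -0.07 between subsets. In 5 classes of equal gene number the median fold change was 0.51, -0.06, -0.41, -0.56 and -0.61 from the shortest class (up to 1829 bases) to the longest (over 5009.6 bases). Calls leaned the same way, with 561 higher and 137 lower in the shortest class and 72 higher and 478 lower in the longest. In GM-CSF-treated mice the medians were 0.06, -0.13, -0.15, -0.17 and -0.09. Each library was also set against the mean of all 16. From the shortest to the longest class, the median deviation went from 0.34 and 0.44 to -0.35 and -0.35 in control cDC1s. In control cDC2s it went from -0.14 and -0.17 to 0.26 and 0.20, and in GM-CSF cDC1s from 0.05 and -0.19 to 0.13 and -0.17.

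**Figure D4:**
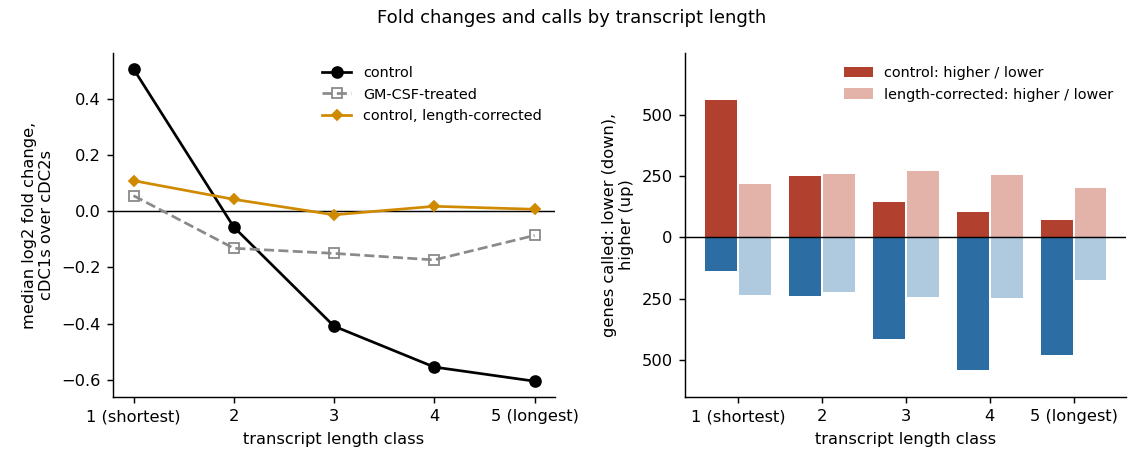
Left, median log2 fold change of cDC1s over cDC2s in 5 classes of transcript length, for control mice (circles), GM-CSF-treated mice (squares) and control mice after length correction (diamonds). Right, number of genes called higher (up) and lower (down) in control mice per class, before (dark) and after (pale) length correction. In control mice the median runs from 0.51 in the shortest to -0.61 in the longest class.

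After each library's deviation was smoothed against length and subtracted, 2327 genes were called (20.7%), 1200 higher (10.6%) and 1127 lower (10.0%). Of the earlier calls, 757 higher genes were called again and 376 were lost, and 1012 lower genes were called again and 804 were lost. Identity genes were called at least as often as before. All 25 cDC1 genes were called higher after correction, and among cDC2 genes 19 were called lower and 5 higher. Some pathway genes were lost. After correction 14 cytokine receptor and JAK-STAT genes were lower, against 20 before it, and 9 fate transcription factors were lower, against 12 before it. Whether the length trend is technical was not tested.

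Last, the subset difference was read in GM-CSF-treated mice, whose libraries are separate from the control libraries. Both contrasts came from the same fit and used the same estimate of spread for each gene. A gene with a small spread is thus called more easily in both, and the overlap of calls is not independent. There 1080 genes were called (9.53%), 469 higher in cDC1s (4.14%) and 611 lower (5.39%). Of these, 808 were called in the same direction in control mice, which is 74.8% of the calls in treated mice and 27.4% of the calls in control mice, and 3 were called in the opposite direction. Among kept calls, 583 of 953 (61.2%) were called the same way in treated mice. Irf8 had 1718 and 1684 FPKM in GM-CSF cDC1s, against 5.40 and 3.19 FPKM in GM-CSF cDC2s (treated log2 fold change 8.36 ± 0.45), Cd8a had 89.2 and 155 FPKM in GM-CSF cDC1s, against 0.189 and 0.233 FPKM in GM-CSF cDC2s (6.62 ± 0.30) and Sirpa had 2.07 and 2.77 FPKM in GM-CSF cDC1s, against 268 and 313 FPKM in GM-CSF cDC2s (-6.42 ± 0.37). Of the identity lists, 24 of 25 cDC1 genes were higher (median 4.49) and 15 of 27 cDC2 genes were lower, with 3 higher (median -2.22).

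Fewer genes were called in treated mice over all genes tested (9.53%, against 26.0% in control mice) and in most lists. Interferon-stimulated genes were lower in 12 of 32 and higher in 3, and cytokine receptor and JAK-STAT genes were lower in 3 of 36, a share near that of all genes in treated mice. Stat3 had 69.2 and 78.9 FPKM in GM-CSF cDC1s, against 75.1 and 77.1 FPKM in GM-CSF cDC2s (-0.04 ± 0.25), against -1.62 in control mice. Csf1r had 11.3 and 7.87 FPKM in GM-CSF cDC1s, against 36.3 and 39.6 FPKM in GM-CSF cDC2s (-1.90 ± 0.54), against -4.15 in control mice. The difference of the contrasts was tested for every gene. It was called for 2 of 11335 genes (0.0176%), Zbed5 and Mmp9, while 1730 genes (15.3%) had an unadjusted p under 0.05, and neither the Stat3 nor the Csf1r difference was called (control minus treated -1.58 and -2.25, adjusted p = 0.255 and 0.28). A fit to all 16 libraries called 775 genes for this difference, and the count was 46 without control cDC1s replicate 1, 1 without control cDC2s replicate 1 and 0 without control cDC1s replicate 2, without any 1 of the GM-CSF libraries or with the replicate number as a block. Other single genes with uneven fold changes were likewise not called. Cd207 had 228 and 236 FPKM in GM-CSF cDC1s, against 0.328 and 0.0653 FPKM in GM-CSF cDC2s (7.62 ± 0.27), Itgae had 141 and 228 FPKM in GM-CSF cDC1s, against 1.95 and 2.06 FPKM in GM-CSF cDC2s (5.91 ± 0.49), and Fcgr2b had 104 and 88.8 FPKM in GM-CSF cDC1s, against 140.3 and 102 FPKM in GM-CSF cDC2s (-0.31 ± 0.29), with adjusted p of 0.234, 0.262 and 0.214 for the difference.

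**Figure D5:**
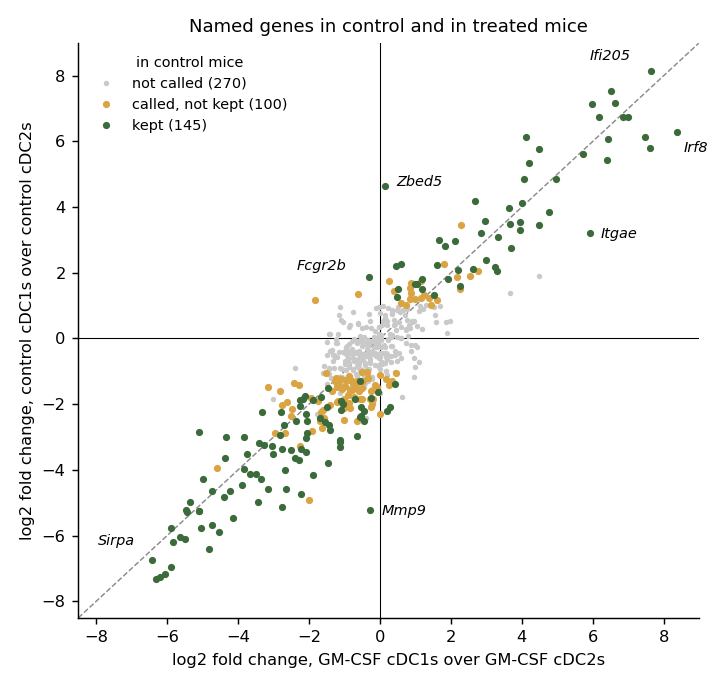
Log2 fold change of cDC1s over cDC2s for the 515 named and list genes, in control mice (y axis) against GM-CSF-treated mice (x axis), on the log2(FPKM + 1) scale. Green points are kept in control mice (145 genes), yellow points called but not kept (100), and grey points are the genes not called. The dashed line marks equal fold changes, and Zbed5 and Mmp9 are the genes whose difference was called.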

How the data were processed

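RNA was extracted from cells sorted by flow cytometry, amplified with an ultra low input SMARTer kit and sequenced on a NovaSeq instrument. The authors trimmed reads, aligned them to mm10 with HISAT2 2.1.0 and deposited 1 FPKM value per gene and library from StringTie 1.3.4d, replicates not pooled. The table held 24532 genes. Fragment counts were not used here, but a step in the low values gave a depth of about 28900000 fragments for control cDC1s replicate 2. It held 7.83 times the usual number of values. For control cDC2s replicate 2 a weaker step, at 5 times, gave about 29500000. In replicate 1 it was 4.75 times in control cDC1s and 4.67 in control cDC2s, and the depth there is unknown. Of 737 genes with a median of at least 100 FPKM, 0 were listed at 0 in any library, and 0 pairs of libraries held identical values.

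From the deposited FPKM values, log2(FPKM + 1) was computed for the 11335 genes that reached 1 FPKM in at least 2 of 16 libraries. Groups were taken from the sample labels. limma 3.58.1 (lmFit, eBayes with trend) in R 4.3.3 was fitted to the 8 control and GM-CSF cDC libraries with a mean per group, which leaves 4 residual degrees of freedom, and p-values were adjusted by Benjamini-Hochberg over all genes tested. The GM-CSF libraries shared in this estimate of the spread. The fit was tested on simulated data. The longest GENCODE transcript was matched for 11268 genes (99.4%). For the length correction, a loess (span 0.5) of each library's deviation from the gene mean on log10 length was subtracted. Tables and figures used Python 3.11.15, pandas 2.3.3, SciPy 1.17.1 and Matplotlib 3.10.9.

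Named genes were the 12 largest calls in each direction with libraries that did not overlap and a group mean of at least 10 FPKM in the higher group (predicted genes left out), members of the gene lists, the genes of the sort gates and genes whose difference between control and treated mice was called. The comparison and the lists were chosen with earlier results of these data known. Alternatives were other sets of libraries in the fit, the replicate number as a block, length correction, quantile and median-of-ratios scaling, a pseudocount of 0.1, other filters, library weights and leaving out each library. A few list members are not reported here.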

Additional observations from a re-analysis of the deposited data

Results flagged for a closer look

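For 2 genes the difference between cDC1s and cDC2s in control mice differed from that in GM-CSF-treated mice by the limma test of the difference itself. Mmp9, a secreted protease that degrades collagen, was 0 and 0 FPKM in control cDC1s, against 26.0 and 49.5 FPKM in control cDC2s. It was listed at 0 in both GM-CSF cDC1 libraries and had 0.220 and 0.197 FPKM in GM-CSF cDC2s (difference -4.93 on the log2(FPKM + 1) scale, adjusted p = 0.0474). Zbed5, a gene of a zinc finger family, had 18.5 and 30.4 FPKM in control cDC1s and was listed at 0 in both control cDC2 libraries. It had 0.253 and 0 FPKM in GM-CSF cDC1s, against 0 and 0.0201 FPKM in GM-CSF cDC2s (difference 4.48, adjusted p = 0.0474). In both genes the signal was held by 1 control subset, in each of its 2 libraries, and both groups of treated libraries were near 0. Groups at or near 0 add little to the spread pooled for a gene, so these adjusted p may be too small. Both calls ended with the replicate number as a block, where the Mmp9 difference of contrasts and the Zbed5 difference of contrasts had an adjusted p of 0.1015 each in limma (0.0562 with length correction added). Both also ended with a pseudocount of 0.1, no filter or library weights, and without control cDC1s replicate 2 or any 1 of the 4 GM-CSF libraries, and the Zbed5 call ended without either control cDC2 library and with all 16 libraries. Over these alternatives the adjusted p ran from 5.95e-05 to 0.539 for Mmp9 and from 0.00424 to 0.539 for Zbed5.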

How the results depend on the processing

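No call of the control comparison turned round under any alternative. The number of genes called was 2949, against 1531 in a fit to the 4 control libraries alone, and 1266 to 3377 when 1 control library was left out, the lowest without cDC2s replicate 1 (the lone library left was assumed to vary like the other groups). Other settings gave 1979 (no filter, 17217 genes tested) to 3599 (all 16 libraries). The share of calls lower in cDC1s followed the scaling, with 1200 higher and 1127 lower after length correction, 1365 and 1251 with quantile normalization, and 1510 and 1418 with median-of-ratios scaling.

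The difference between control and treated mice, called for 2 genes, was called for 775 with all 16 libraries, for 5 with no filter, for 0 with a pseudocount of 0.1, library weights, the replicate block or the block with length correction, and for 0 to 46 when 1 library was left out. The rho between fold change and length, -0.36, was -0.25 with the median transcript length, -0.42 at an FPKM of at least 5, -0.30 with quantile normalization and -0.37 to -0.32 without 1 library.

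The labels do not say what a shared replicate number means. Replicate differences correlated at 0.10 between control cDC1s and control cDC2s, at 0.67 between the GM-CSF subsets, at 0.40 between control cDC2s and each GM-CSF subset, and at -0.01 and 0.11 between control cDC1s and the GM-CSF subsets, so the numbers were not taken to pair all samples, though some deviated together. With the replicate block 3334 genes were called, and 2643 with the block and length correction. Of 515 named and list genes, 245 were called, and 100 of these calls were lost in at least 1 of the 5 fits used for kept calls. With 2 libraries in each group and unknown depth in 2 of 4 control libraries, a gene that was not called cannot be taken as equal between the subsets.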
